A study of Triticum aestivum with 12 samples.

Results

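A set of 42 wheat genes was higher in the grain and lower in the flag leaf of the E82 line than in its wild type (WT), out of 107892 genes in the deposited count table. The set was chosen on measured values. For each gene, the count in each library was divided by the library's total and given as counts per 1e6 (CPM), and the mean was taken over the 3 libraries of each line and tissue. A gene entered the set if its mean was at least 10 CPM in E82 grain and in WT leaf, if its mean in grain was at least 2-fold higher in E82 with every E82 library above every WT library, and if its mean in leaf was at most 0.5 times the WT with every E82 library below every WT library. The genes were then ranked by the log2 ratio of E82 over WT in grain minus that in leaf, after adding 0.1 CPM to each mean. The direction of change in each tissue, the folds and the lack of overlap between the lines are therefore a description of the selection, and counts of genes called on these contrasts are given only as a description.

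The WT was the bread wheat line BW208. E82 is a single selfed RNA interference line made from it. Its hairpin transgenes, pGhp-ω/α and pghp8.1, are aimed at 3 gliadin classes (ω, α and γ), and their promoters were chosen for activity in the endosperm. Both lines grew in a greenhouse, and grain and flag leaf were taken at 20 days after anthesis (DAA) from 3 plants per line. Grain and leaf libraries of a line may therefore come from the same plants. This sampling gave 12 libraries in groups of 3 (WT grain, E82 grain, WT leaf and E82 leaf).

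In RNA interference, a hairpin transcript is cut into small RNAs that guide the degradation of matching transcripts. The endosperm is the storage tissue of the grain, so the leaf is a tissue in which the hairpins are not expected to be made. During grain filling the flag leaf exports sugars and the amino acids released from its own proteins, and the grain takes them up, so the same gene can be read at the source and at the sink. Bread wheat is a hexaploid with 3 subgenomes, A, B and D, and a gene ID such as TraesCS3B02G062700 names the chromosome, here 3B, and the order of the gene along it. Gene names and functions for these IDs were not used here, so the genes are described by their ID, chromosome, transcripts and levels.

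The libraries held between 27173003 and 59921210 counts, with the lowest total in WT leaf replicate 3. In WT leaf 31558 to 45655 genes had a count, whereas E82 leaf had 55916 to 59840, and replicates correlated less in WT leaf (Pearson's r of 0.809 to 0.894 across genes) than in E82 leaf (0.978 to 0.986). By the study's alignment summary, a smaller share of reads aligned in each WT leaf library than in any other library. WT leaf replicate 3 had the lowest share. The part of this difference in the leaf values was not tested. Markers of each tissue were compared with the labels. The summed level of 10 endosperm genes (Glo3, BT1, waxy, PBF and SSIIa genes) was 10500 to 12580 CPM in WT grain and 7574 to 8123 CPM in E82 grain, against at most 30.4 CPM in WT leaf and 0.726 CPM in E82 leaf. All 10 had a mean above 1 CPM in WT grain, but only 5 in E82 grain, where 2 had no count, so the sum there rests on few genes. The summed level of 3 leaf genes (GBSSII and GLK1 genes) was 55.9 to 90.7 CPM in WT leaf and 132 to 177 CPM in E82 leaf, against 4.29 to 6.10 CPM in WT grain and 1.80 to 5.88 CPM in E82 grain. So the leaf markers were higher in E82 leaf, where the 42 genes were lower, and the endosperm markers were lower in E82 grain, where the 42 genes were higher. From these same libraries the study called the BT1, waxy and SSIIa genes and the A copy of PBF lower in E82 grain. It also called GBSSII higher in E82 leaf, so the marker shifts are not independent of how the markers were chosen. The part of these shifts in the values of the 42 genes was not tested. The summed level of 3 embryo genes (FUSCA3) was 42.5 to 72.7 CPM in WT grain and 43.6 to 81.0 CPM in E82 grain, and at most 0.890 CPM in leaf. In bulk tissue, fewer cells of a type and less RNA per cell cannot be told apart.

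The level minimum was met by 11460 genes. Among these, 223 (1.95%) passed the grain criteria and 1588 (13.9%) passed the leaf criteria, and the 42 genes that passed both made up 18.8% of the first list and 2.64% of the second. A further 22 genes were raised by the same criteria in both tissues, 25 were lowered in both, and 4 showed the opposite pattern, lowered in grain and raised in leaf. The level minimum asks for expression in E82 grain and in WT leaf, the groups in which the set is high, and 50.4% of the 11460 genes had a log2 ratio above 0 in grain and below 0 in leaf, against 6.92% with the opposite signs. The median log2 ratio of the 42 genes was 1.26 in grain (range 1.01 to 3.02) and -1.56 in leaf (range -3.98 to -1.02). Over the 11460 genes these medians were 0.19 and -0.34. The fall in leaf exceeded the rise in grain on the log2 scale for 30 of the 42 genes. Of the 42 genes, 5 were more than 4-fold higher in E82 grain, whereas 11 were more than 4-fold lower in E82 leaf, and 23 genes were under 2.5-fold in grain.

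**Figure D1:**
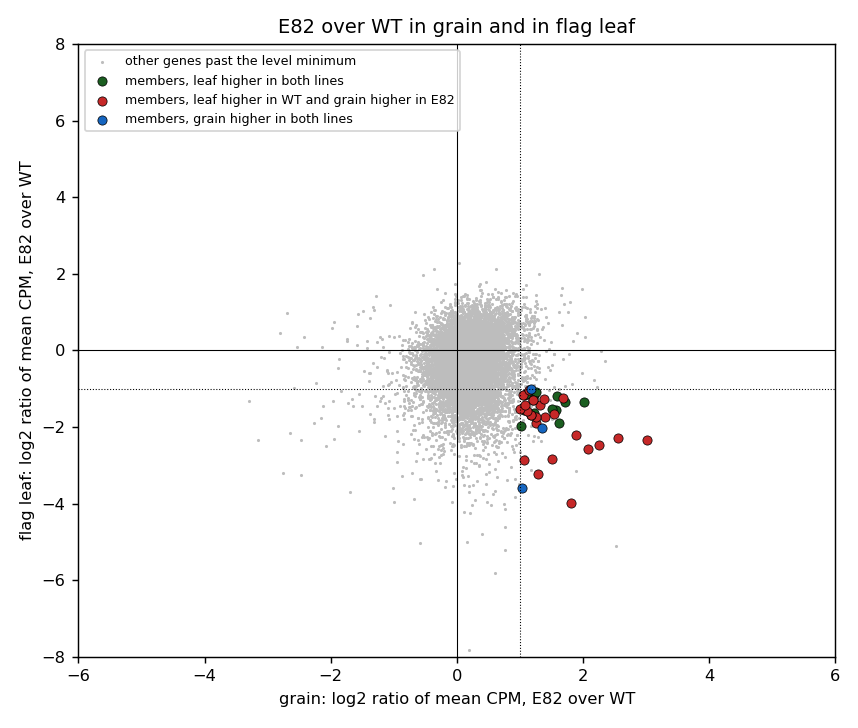
Log2 ratio of mean CPM (E82 over WT, 0.1 CPM added) in grain on the horizontal axis and in flag leaf on the vertical axis, for 11458 of the 11460 genes past the level minimum (2 lie outside the axes). The 42 members of the set are coloured by the tissue in which they were higher in each line and lie beyond the dotted lines at 1 and -1, by selection, at the lower right edge of the other genes in grey.

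The thresholds passed through a continuous distribution on the grain side. The members closest to the grain threshold were TraesCS2D02G181100 at 2.02-fold (34.2 ± 1.02 against 17.0 ± 5.35 CPM, SD, n = 3) and TraesCS2D02G117400, also at 2.02-fold. Just outside it lay TraesCS6A02G217300 at 1.998-fold and TraesCS4A02G296300 at 1.987-fold, and 183 genes failed the grain fold alone. On the leaf side, TraesCS3D02G534000 (0.489 times the WT) and TraesCS6D02G100900 (0.483 times) were the last inside. TraesCS4A02G446500 (0.541 times) and TraesCS2B02G421800 (0.572 times) lay just outside, and 7 genes failed the leaf ratio alone.

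The counts of called genes depended on the test. With edgeR's quasi-likelihood test and Benjamini-Hochberg adjustment over all genes tested, 5 of the 42 genes were called higher in E82 grain, where 0.0927% of 64706 genes were called higher. In leaf the same test called 0 of the 42 genes lower, where 0.143% of 53874 genes were called lower, and 36 of the 42 had an unadjusted p-value under 0.05, against 5.06% of the genes tested that were lower with such a p-value. With DESeq2, 21 of the 42 genes were called higher in grain (0.648% of all genes tested) and 31 were called lower in leaf (4.14%). With edgeR's exact test, 1162 of the 53874 genes were called lower and 4967 higher in E82 leaf, with 21 of the 42 among those lower. The study also used edgeR and reported more genes lower in E82 leaf and higher in E82 grain than the quasi-likelihood test called here. When the line effect was compared between the tissues in one fit of 12 libraries, edgeR called 27 of the 42 genes (0.361% of 70086 genes called in that direction) and DESeq2 41 (2.18%). With a replicate block for each number within a line, which stands for shared plants if the numbers name plants, edgeR called 0 of the 42 genes and 0 of all genes. The selection used these contrasts, so nothing is read from the members' counts. With TMM scaling the median log2 fold change of all genes tested was 0.01 in grain and 0.21 in leaf, and that of the 42 genes was 1.11 and -1.31. With library totals alone the medians were 0.19 and -0.06 for all genes and 1.27 and -1.57 for the 42 genes. Under TMM factors taken over the 12 libraries, 20 of the 42 genes still met the selection.

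All 42 genes were well counted in most libraries. The lowest count of any of them was 68 in WT grain, 265 in E82 grain, 175 in WT leaf and 25 in E82 leaf. The median level of the 42 genes was 6.10 to 10.3 CPM over the WT grain libraries and 22.4 to 24.3 CPM over the E82 grain libraries. In leaf it was 34.3 to 64.8 CPM in the WT and 9.72 to 16.3 CPM in E82. WT grain replicate 1 gave the lowest of the 3 WT grain values for 35 of the 42 genes (83.3%), against 65.5% of the 11460 genes past the level minimum. WT leaf replicate 3 gave the highest WT leaf value for 25 of the 42 genes (59.5%), against 35.3% of the 11460 genes. E82 leaf replicate 2 gave the highest E82 leaf value for 26 of the 42 genes (61.9%, against 56.3%). The median coefficient of variation of the 42 genes was 36.6% in WT grain and 37.7% in WT leaf, against 22% in E82 grain and 30.9% in E82 leaf. Over the 11460 genes the same medians were 21.4% in WT grain, 35.7% in WT leaf, 15.4% in E82 grain and 15.4% in E82 leaf.

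**Figure D2:**
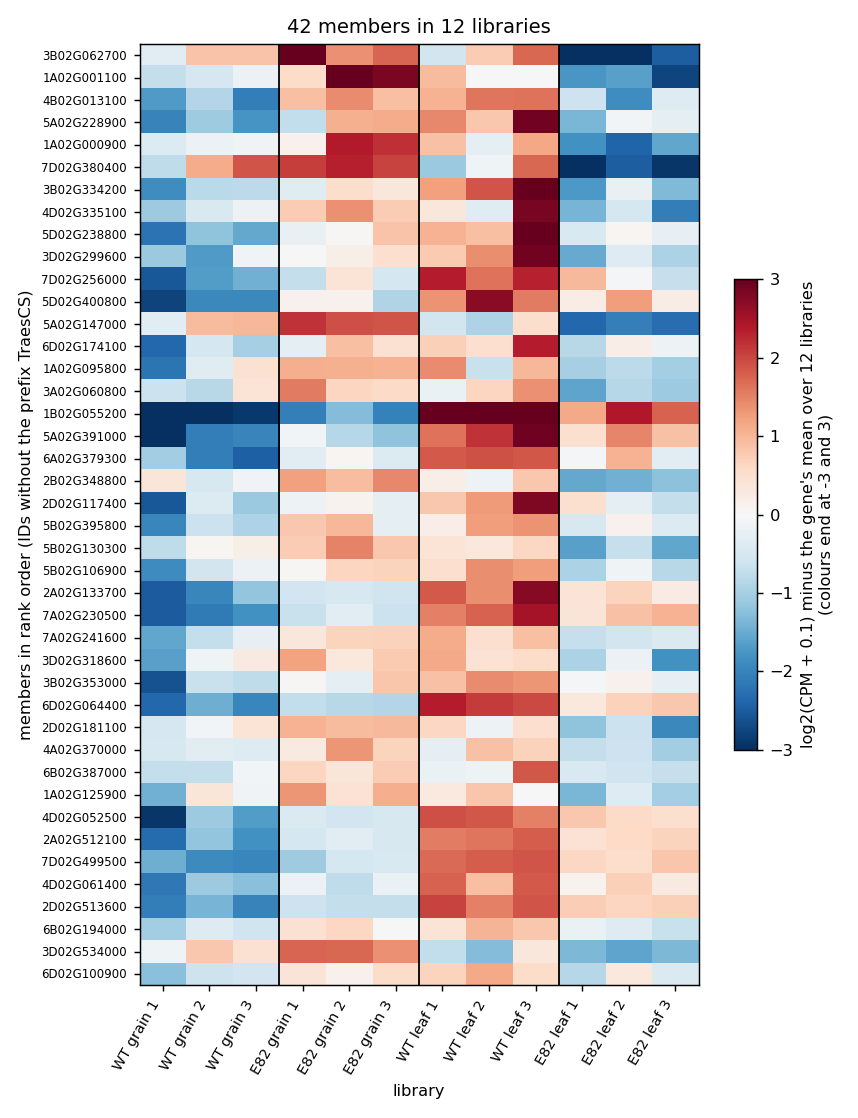
The 42 genes (rows, in rank order) in the 12 libraries (columns), as log2(CPM + 0.1) minus the mean of each gene over the 12 libraries. Red cells are above the gene's mean and blue cells below it, with E82 grain and WT leaf mostly red and WT grain and E82 leaf mostly blue, and with WT leaf replicate 3 the reddest WT leaf column for 25 genes.

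Leaving out one library changed the fold of some genes. In leaf, the fold moved by over 1.5 times for 11 genes, and for all 11 it fell when WT leaf replicate 3 was left out. The leaf fold dropped under 2 for 7 of the 42 genes without some library, with 1.32-fold the lowest value (TraesCS6B02G387000). In grain, the fold dropped under 2 for 21 genes without some library, with 1.51-fold the lowest value (TraesCS7D02G380400), and it was WT grain replicate 1 whose removal gave the lowest fold for 25 of the 42 genes. Without WT grain replicate 1, 26 genes met the selection, of which 23 were among the 42. Without WT grain replicate 2 or 3 the number was 83 or 99, and without E82 grain replicate 1 it was 76.

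In WT, 39 of the 42 genes had a higher mean CPM in leaf than in grain. For 30 of them every WT leaf library lay above every WT grain library, as for 22.2% of the 11460 genes. In E82, 14 of the 42 genes were still higher in leaf, and for 11 of them the libraries did not overlap (20.3% of the 11460 genes). The other 28 genes were higher in grain in E82, and 21 of them without overlap between the libraries (53.7% of the 11460 genes). The selection fixes a fall of at least 4-fold in the ratio of leaf over grain from WT to E82, so these counts describe it and nothing is read from them. The median ratio of leaf over grain for the 42 genes was 4.85 in WT and 0.466 in E82. Over the 11460 genes it was 0.974 in WT and 0.664 in E82. The set thus fell into 25 genes that were higher in leaf in WT and higher in grain in E82, 14 genes that were higher in leaf in both lines, and 3 genes that were higher in grain in both lines. The shares of these classes among the 11460 genes were 20.9%, 27.6% and 48.1%.

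**Figure D3:**
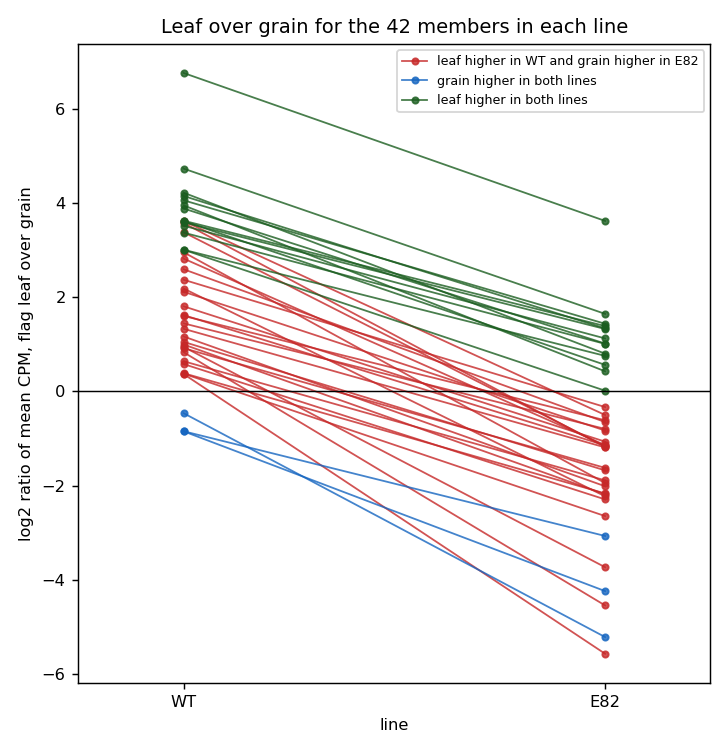
Log2 ratio of mean CPM in flag leaf over grain for each of the 42 genes in WT (left) and in E82 (right), joined by a line per gene. The line at 0 marks equal levels in both tissues: 25 genes (red) pass from above it to below it, 14 (green) stay above and 3 (blue) stay below.

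The 25 genes whose higher tissue changed between the lines held 9 of the 12 genes of highest rank. First in rank was TraesCS3B02G062700 on chromosome 3B, with a single listed transcript of 453 bases. Its level in grain was 7.33, 17.0 and 16.8 CPM in WT replicates 1 to 3 and 89.4, 24.4 and 31.6 CPM in E82. In leaf it was 6.30, 15.8 and 30.9 CPM in WT and 0.425, 1.05 and 1.60 CPM in E82, the lowest mean of any of the 42 genes in E82 leaf. E82 grain replicate 1 stood above the other E82 grain libraries. The mean rose 3.54-fold in grain and was 17.2-fold lower in leaf. Without E82 grain replicate 1 the grain fold was 2.04, and without WT leaf replicate 3 the leaf fold was 10.8.

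TraesCS4B02G013100, of rank 3, had, after a gene of 1A, the largest grain fold of the set. Its grain levels were 2.84, 5.05 and 2.17 CPM in WT and 17.7, 25.1 and 17.7 CPM in E82. Its leaf levels were 19.5, 28.9 and 29.4 CPM in WT and 6.07, 2.52 and 7.14 CPM in E82. The groups did not overlap, although WT grain (3.35 ± 1.51 CPM) and E82 leaf (5.24 ± 2.42 CPM, SD, n = 3) varied widely for their level. The means differed by 6.01-fold in grain and 4.94-fold in leaf, and no removal of one library brought the grain fold below 5.11 or the leaf fold below 3.93.

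TraesCS5A02G228900 and TraesCS5D02G238800, of ranks 4 and 9, lie at a like place in the gene order of 5A and 5D. TraesCS5A02G228900 was at 3.52, 6.86 and 4.18 CPM in WT grain and at 8.59, 30.6 and 31.7 CPM in E82 grain. In leaf it was at 39.4, 25.4 and 108 CPM in WT and at 5.54, 13.6 and 12.1 CPM in E82. E82 grain replicate 1 was the low library of its group and WT leaf replicate 3 the high one, and the folds were 4.87 in grain and 5.54 in leaf. TraesCS5D02G238800 was at 5.95, 12.1 and 9.57 CPM in WT grain and at 24.0, 28.5 and 50.8 CPM in E82 grain. Leaf levels of this gene were 58.0, 52.0 and 228 CPM in WT and 20.4, 29.2 and 23.5 CPM in E82. WT leaf replicate 3 was again far above the other WT leaf libraries. The folds were 3.75 in grain and 4.62 in leaf, and without that library the leaf folds of this pair were 3.11 (5A) and 2.26 (5D).

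TraesCS3B02G334200 and TraesCS3D02G299600, of ranks 7 and 10, changed mostly in leaf. TraesCS3B02G334200 was at 29.2, 46.5 and 107 CPM in WT leaf and at 3.72, 10.7 and 4.93 CPM in E82 leaf. Its grain levels were 3.38, 7.04 and 7.19 CPM in WT and 9.67, 18.0 and 15.7 CPM in E82. This was a 9.44-fold difference in leaf and a 2.46-fold difference in grain. TraesCS3D02G299600 was at 18.6, 28.4 and 81.0 CPM in WT leaf and at 3.69, 8.22 and 5.55 CPM in E82 leaf. Its grain levels were 4.90, 3.26 and 10.01 CPM in WT and 10.9, 12.3 and 15.3 CPM in E82, the last WT value close to the first E82 value. Its folds were 7.33 in leaf and 2.12 in grain, and without WT leaf replicate 3 the leaf folds of the pair were 5.86 (3B) and 4.04 (3D).

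TraesCS4D02G335100, of rank 8, rested most on one library. It was at 8.46, 5.10 and 48.7 CPM in WT leaf and at 2.48, 4.56 and 1.49 CPM in E82 leaf. WT and E82 replicates 2 were almost at the same level, and WT leaf replicate 3 carried the mean of 20.7 ± 24.2 CPM (SD, n = 3). The leaf fold was 7.31 with all libraries and 2.39 without WT leaf replicate 3. In grain it was at 3.04, 4.81 and 5.86 CPM in WT and at 11.4, 17.2 and 11.2 CPM in E82, a fold of 2.90.

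**Figure D4:**
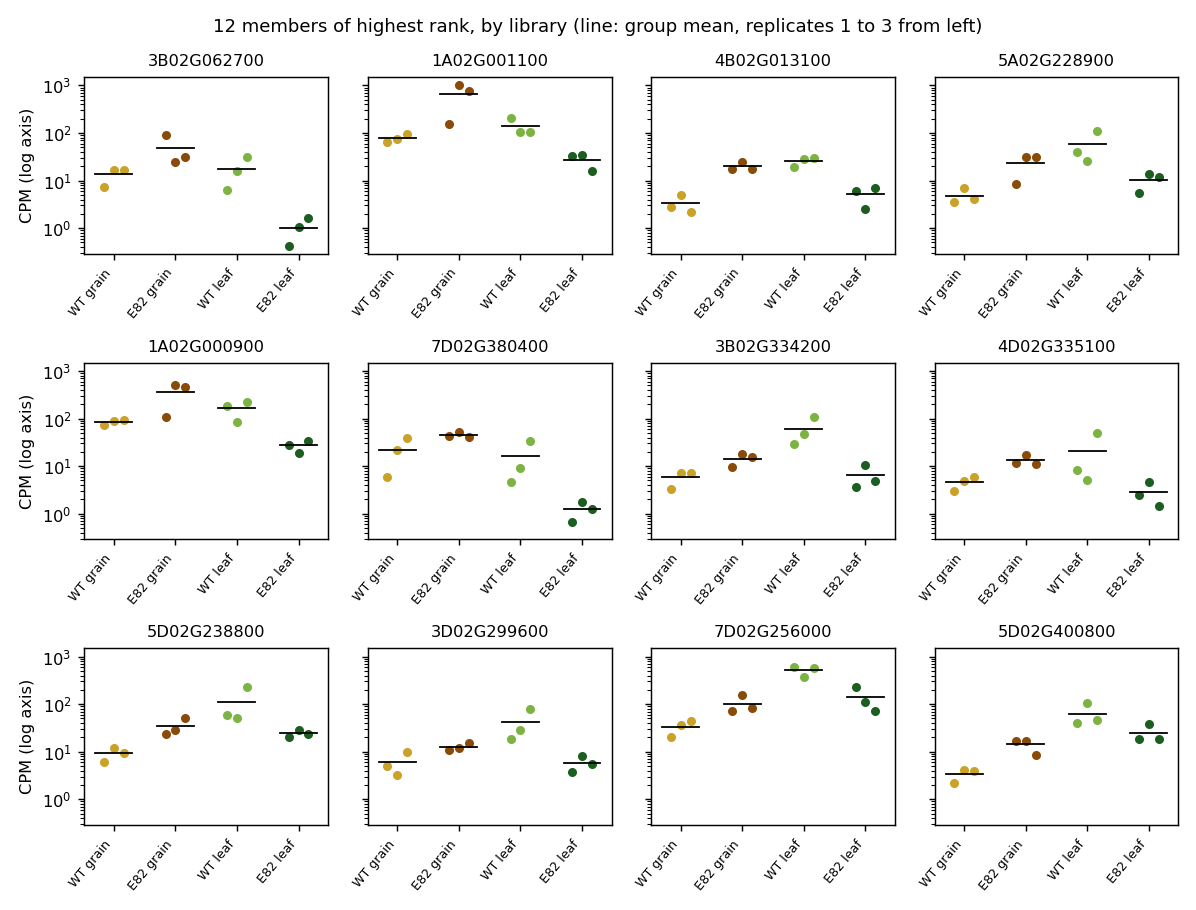
CPM on a log axis in each library of the 12 genes of highest rank, with replicates 1 to 3 from left to right in each group and a black line at the group mean. In every panel the E82 grain points lie above the WT grain points and the E82 leaf points below the WT leaf points, by selection, with the spread widest in WT leaf for TraesCS4D02G335100, whose replicate 3 was at 48.7 CPM against 8.46 and 5.10 CPM.

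The 14 genes that were higher in leaf in both lines had a median level of 120 CPM in WT leaf and 24.5 CPM in E82 grain, against 23.7 and 20 CPM in the 25 genes above. TraesCS7D02G256000, with 1 listed transcript of 249 bases, had the highest level per transcript length in leaf. In TPM, a unit that scales for transcript length, it was at 7118 ± 1919 TPM in WT leaf and 2109 ± 1307 TPM in E82 leaf (SD, n = 3), and the next gene of the set in WT leaf, TraesCS1B02G055200, was at 546 ± 115 TPM. The CPM of TraesCS7D02G256000 was 604, 363 and 579.8 in WT leaf and 230.0, 113 and 73.5 in E82 leaf. In grain its CPM was 20.1, 36.8 and 43.5 in WT and 71.5, 156.6 and 81.4 in E82. The 3.72-fold fall in leaf and 3.08-fold rise in grain left it 1.34 times higher in leaf than in grain in E82, against 15.4 times in WT. Its E82 leaf and E82 grain libraries overlapped, and only E82 leaf replicate 1 lay above every E82 grain library. TraesCS2D02G117400, also among the 14 genes, was 1.01 times higher in leaf in E82, so its place in the class is close.

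TraesCS1B02G055200 had the highest ratio of leaf over grain of the set in WT, 108 times its level in grain. It was at 494, 538 and 734 CPM in WT leaf and at 122, 294 and 189 CPM in E82 leaf. In grain it was at 5.49, 3.49 and 7.38 CPM in WT and at 13.3, 22.5 and 13.5 CPM in E82. In E82 the leaf level was still 12.3 times the grain level, so that leaf was the higher tissue in both lines, with folds of 2.92 in leaf and 3.01 in grain.

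TraesCS2D02G513600 and TraesCS6D02G064400, also among the 4 genes with the most reads in WT leaf, varied most in WT grain. TraesCS2D02G513600 was at 281, 199 and 257 CPM in WT leaf and at 115, 108 and 113 CPM in E82 leaf. In grain it was at 16.5, 26.2 and 17.2 CPM in WT and at 44.8, 42.1 and 41.9 CPM in E82. Its counterpart by place on 2A, TraesCS2A02G512100, had mean levels of 110 ± 11.7 CPM in WT leaf and 51.4 ± 4.32 CPM in E82 leaf. The 2D and 2A genes had near folds, 2.19 and 2.13 in leaf and 2.15 and 2.41 in grain. TraesCS6D02G064400 was at 280.3, 235 and 216 CPM in WT leaf and at 67.5, 87.6 and 95.6 CPM in E82 leaf. In grain it was at 10.5, 19.6 and 13.9 CPM in WT and at 32.5, 30.6 and 29.6 CPM in E82, a rise of 2.10-fold beside a fall of 2.92-fold in leaf.

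The 3 genes that were higher in grain in both lines were TraesCS7D02G380400, TraesCS5A02G147000 and TraesCS3D02G534000. TraesCS7D02G380400, of rank 6, was at 5.97, 22.2 and 38.3 CPM in WT grain and at 43.3, 51.8 and 41.9 CPM in E82 grain. In leaf it was at 4.72, 9.36 and 34.2 CPM in WT and at 0.668, 1.76 and 1.27 CPM in E82. The WT values spread over more than the grain fold of 2.06 itself, since WT grain replicate 3 came close to the E82 values, and the leaf fold of 13.0 was 5.70 without WT leaf replicate 3. TraesCS5A02G147000, with 1 transcript of 309 bases, was at 40.7, 97.7 and 102 CPM in WT grain and at 229, 193 and 188 CPM in E82 grain. Its levels in leaf were 34.4, 26.5 and 72.6 CPM in WT and 9.89, 12.2 and 10.3 CPM in E82. Per transcript length it was the highest gene of the set in grain, at 667 ± 306 TPM in WT and 1726 ± 258 TPM in E82, followed by TraesCS7D02G256000 at 413 ± 174 and 1437 ± 627 TPM. Both have short transcripts, for which the effective length behind a TPM is small and the TPM the less certain. TraesCS3D02G534000 was at 13.3, 25.6 and 20.1 CPM in WT grain and at 49.1, 47.8 and 37.6 CPM in E82 grain. Leaf levels were 8.63, 5.88 and 18.4 CPM in WT and 5.66, 4.77 and 5.64 CPM in E82, so that the lowest WT value lay only just above the highest E82 value.

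A pair of the genes, TraesCS1A02G000900 and TraesCS1A02G001100, lie 2 places apart at the start of the gene order of chromosome 1A, and no other pair of the 42 lay within 5 places on one chromosome. Their ranks were 5 and 2. TraesCS1A02G001100 was at 65.4, 76.7 and 96.4 CPM in WT grain and at 158, 1013 and 764 CPM in E82 grain. TraesCS1A02G000900 was at 75.1, 88.1 and 92.1 CPM in WT grain and at 109, 517 and 454 CPM in E82 grain. E82 grain replicate 1 was only little above the WT for TraesCS1A02G000900 and further above it for TraesCS1A02G001100. For both genes replicates 2 and 3 were several times higher than replicate 1. In leaf, TraesCS1A02G001100 was at 211, 107 and 107 CPM in WT and at 32.4, 34.9 and 15.9 CPM in E82. TraesCS1A02G000900 was at 183, 82.7 and 225 CPM in WT leaf and at 28.5, 18.9 and 34.1 CPM in E82 leaf. The E82 leaf libraries differed less than the E82 grain libraries, and replicate 1 was not the lowest of them for either gene. The grain folds were 8.11 and 4.23, the largest of the set and the largest but 3, and 11.2 and 5.71 without E82 grain replicate 1. This pair made up 17.2 to 52.6% of the summed level of the 42 genes in E82 grain, with the lowest share in replicate 1. Without the pair, the summed level of the other 40 genes was 321 to 607 CPM in WT grain and 1202 to 1379 CPM in E82 grain.

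Some genes around this pair showed the same split of the E82 grain libraries. Of the first 15 genes of 1A, 7 had a mean of at least 5 CPM in some group, of which 2 are the pair. E82 grain replicate 1 was below replicates 2 and 3 in all 7, with replicate 2 between 1.38 and 13.2 times replicate 1, against a median of 0.962 over the 11460 genes. Replicates 2 and 3 were above every WT grain library in 5 of the 7, the pair included, but not in TraesCS1A02G000100 or TraesCS1A02G000200. In leaf, 6 of the 7 were lower in E82 without overlap between the lines. TraesCS1A02G001000, between the pair, was at 1.67, 2.51 and 3.06 CPM in WT grain and at 1.97, 26.02 and 15.2 CPM in E82 grain. Its leaf levels were 29.5, 14.7 and 40.8 CPM in WT and 0.929, 0.562 and 0.694 CPM in E82. The gene stayed out of the set because E82 grain replicate 1 lay within the range of the WT. For TraesCS1A02G000400 it lay below the WT, since this gene was at 35.9, 34.3 and 36.4 CPM in WT grain and at 19.2, 128 and 121 CPM in E82 grain. The exception in leaf was the first gene of the order, TraesCS1A02G000100, with a log2 ratio of 0.55. These neighbours were chosen for their place, after the values of the pair had been seen.

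**Figure D5:**
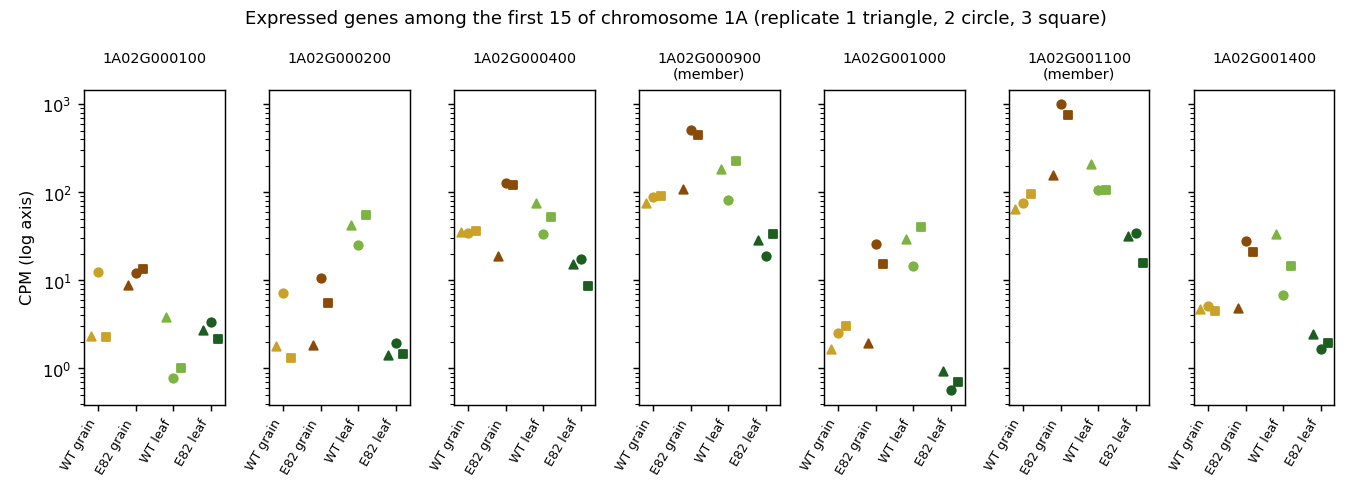
CPM on a log axis in each library for the 7 genes of at least 5 CPM among the first 15 of chromosome 1A, with replicate 1 as a triangle, 2 as a circle and 3 as a square. In E82 grain the triangle lies below the circle and the square in all 7 panels, and in leaf the E82 points lie below the WT points in 6 of them.

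Few of the genes lay among neighbours that moved as they did. For each of the 42 genes the median log2 ratio was taken over up to 14 expressed genes around it. This median was at least 1 in grain for 2 genes, TraesCS1A02G000900 (1.01) and TraesCS3D02G534000 (1.28), and at most -1 in leaf for the 1A pair (-1.95 and -1.03). Over the 42 genes, the median of these neighbour medians was 0.24 in grain and 0.01 in leaf. The set was spread over 19 of the 21 chromosomes, with 4 genes on 1A and none on 1D or 7B. The A, B and D subgenomes held 14, 11 and 17 of the 42 genes (33.3, 26.2 and 40.5%), against 32.8, 31.5 and 34.8% of the 11460 genes. In the first or last 10% of the gene order of their chromosome lay 5 of the 42 genes (11.9%, against 12.2%).

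Several of the genes shared their place with another member of the set on a sister chromosome. Counting genes of the same chromosome group whose place in the gene order differed by at most 2% of the chromosome, 9 pairs were found, with 15 of the 42 genes in a pair and 27 in none. Whether these are homeologs was not checked by sequence. How many such pairs place alone would give among genes past the level minimum was not counted, so nothing is read from these counts. Some of the group 5 pairs joined TraesCS5A02G391000, TraesCS5B02G395800 and TraesCS5D02G400800, at 69.7, 69.2 and 70.3% of the gene order. In E82 grain TraesCS5A02G391000 was at 19.7, 11.5 and 8.98 CPM, TraesCS5B02G395800 at 64.6, 73.4 and 30.5 CPM, and TraesCS5D02G400800 at 17.1, 17.1 and 8.34 CPM. In WT grain they were at 1.96, 4.83 and 5.20 CPM (5A), 9.41, 23.5 and 19.3 CPM (5B), and 2.21, 4.04 and 4.01 CPM (5D). E82 grain replicate 3 was the lowest E82 library and WT grain replicate 1 the lowest WT library for all 3 genes. In leaf their WT levels were 64.7, 94.1 and 158 CPM (5A), 42.3, 88.6 and 95.1 CPM (5B), and 40.04, 104 and 46.9 CPM (5D), and in E82 they were 29.1, 57.9 and 38.5 CPM, 26.5, 40.6 and 27.7 CPM, and 18.3, 37.6 and 18.3 CPM. E82 leaf replicate 2 was the highest E82 leaf library for all 3. Their log2 ratios lay near each other, at 1.72, 1.68 and 2.02 in grain and -1.33, -1.25 and -1.36 in leaf. The 5B gene was the only one that was higher in grain than in leaf in E82.

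The other pairs were less alike in some cases. TraesCS3A02G060800 and TraesCS3B02G062700 had log2 ratios of -1.89 and -3.98 in leaf, and their listed transcripts differ in length (1625 and 453 bases). TraesCS3B02G353000 and TraesCS3D02G318600 had -1.28 and -1.57 in leaf and 1.39 and 1.11 in grain. TraesCS6B02G194000 and TraesCS6D02G174100 had -1.17 and -1.66 in leaf and 1.04 and 1.54 in grain. Reads shared by near-identical copies are divided among them in pseudoalignment, so the value of a single copy is uncertain to that extent, and near values of 2 copies are not independent.

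How the reads of a gene fell on its transcripts was not used in the selection. A single transcript was listed for 37 of the 42 genes (88.1%), against 63.7% of the 11460 genes. The median length of the longest transcript was 1671 bases (range 249 to 4204), against 1793 bases. Of the 5 genes with several transcripts, only TraesCS4D02G052500 reached 5 TPM in all 6 leaf libraries. Its main transcript took 100, 100 and 100% of the gene's TPM in WT leaf and 82.4, 52.4 and 62.7% in E82 leaf. The lines did not overlap, as in 23.7% of the 2930 genes tested in leaf. With 3 libraries against 3 the two-sided exact permutation test cannot go below p = 0.10, which is the value here. In grain, where no gene of the set reached 5 TPM in all 6 libraries with several transcripts, its main transcript took 16.1, 77.4 and 55.6% in WT and 98.6, 35.8 and 51.0% in E82, with the lines overlapping.

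None of the 42 genes was among the 202 genes in 10 lists drawn from the study's tables, most of which the study chose on these libraries. Only 51 of the 202 passed the level minimum, so the absence says nothing about the set. The lists cover storage protein and starch regulators, starch synthesis, amino acid, proline and sugar transporters, proteases and cystatins. By log2 ratio, 2 of the 5 listed proline transporter genes, which carry proline across membranes, were at 1 or more in grain and at -1 or less in leaf. The other 3 were not: TaProT2-3A had 0.92 in grain and -3.47 in leaf, TaProT3-4A had -0.79 and -2.25, and TaProT1-2B had 0.44 and 1.17. All 5 were listed by the study for a called difference in E82 leaf in these libraries, so their leaf ratios follow that choice. TaProT2-3B (TraesCS3B02G449100) was at 36.8, 20.8 and 47.6 CPM in WT leaf and at 2.29, 1.16 and 1.35 CPM in E82 leaf. In E82 grain it was at 2.10, 0.685 and 0.820 CPM, with no count in WT grain. TaProT2-3D (TraesCS3D02G408800) was at 136, 91.5 and 104 CPM in WT leaf and at 7.93, 7.12 and 5.52 CPM in E82 leaf, and at 0.959, 1.67 and 1.27 CPM in E82 grain against 0, 0.272 and 0.365 CPM in WT grain. TaProT2-3B and TaProT2-3D lay far under the level minimum of 10 CPM in E82 grain, so they were not in the set.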

How the data were processed

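RNA was extracted from grain and flag leaf, depleted of rRNA and sequenced as paired reads. The authors used Trimmomatic 0.36 for trimming and kallisto 0.44.0 for pseudoalignment, with IWGSC RefSeq v1.1 as the transcript set. The deposited table holds estimated counts per gene, not normalized, and the deposited files per library hold the TPM of each transcript as kallisto gave it. TPM were summed per gene. The listed TPM came to between 757995 (E82 leaf replicate 2) and 867760 (WT grain replicate 1) per library, not 1e6, and were not rescaled. CPM used column totals. Counts were rounded for tests with edgeR 4.0.16 (quasi-likelihood, TMM, CPM sum above 1, Benjamini-Hochberg adjustment, threshold 0.05), in R 4.3.3, per tissue on 6 libraries and over 12 libraries for the interaction. Alternatives used DESeq2 1.42.0, limma 3.58.1 (log2 TPM, pseudocount 1 or 0.1), other scalings and filters, and each library left out. Same-numbered libraries did not deviate together, and the numbers are not said to name plants. The fits were tested on simulated data: quasi-likelihood calls in grain held more false ones than the threshold allows, and few changes of 4-fold were called in leaf. Summaries used Python 3.11.15 and pandas 2.3.3. Totals of 27173003 to 59921210 counts set the precision, and counting error only is covered by them.

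The members and lists were chosen with earlier results of these data known. Named genes are the 12 of highest rank, the 4 with the highest mean CPM in E82 grain and the 4 in WT leaf, those study tables list (none), and the 2 genes on each side of each threshold. Other genes were named after their values were seen. Each line had 3 plants, which grain and leaf libraries may share, and the fits over 12 libraries treat the libraries as independent.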

Additional observations from a re-analysis of the deposited data

Results flagged for a closer look

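The difference between the lines differed between grain and leaf for 27 of the 42 genes by edgeR's quasi-likelihood test of the interaction of line and tissue over 12 libraries, with Benjamini-Hochberg adjustment. Of all 70086 genes tested, 0.361% were called in that direction. With a block for each replicate number within a line, 0 of the 42 genes and 0 of all genes were called. Opposite directions in the 2 tissues were required by the selection, so the number of 27 is a description. Groups of 3 libraries were not tested for outlying samples.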

How the results depend on the processing

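The number of genes that met the selection changed from 42 to 20 with TMM factors and to 20 with DESeq2 size factors, all among the 42, to 79 and 19 with a level minimum of 5 and 20 CPM, to 150, the most allowed, at 1.5-fold and 7 at 3-fold, to 72 with overlap allowed, and to between 26 (without WT grain replicate 1) and 99 (without WT grain replicate 3) when one library was left out. Of the 42 genes, 16 were kept without each library in turn, and 14 under all 5 other scalings and units.

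The number called higher in grain changed from 5 to 21 by DESeq2, 22 by the likelihood ratio test, 21 by the exact test, 16 without a filter on low counts, 0 with 12 libraries sharing one spread, and 1 by limma with either pseudocount, with 0 (without E82 grain replicate 2) to 5 when one library was left out. Over all genes the calls in these settings moved from 60 to 419, 360, 281, 137, 17 and, by limma, 55 and 66. They numbered 4 over all genes without E82 grain replicate 2, and 180 without WT grain replicate 3, where 5 of the 42 were called. The number called lower in leaf changed from 0 to 31 by DESeq2, 22 by the likelihood ratio test, 21 by the exact test, 12 with filterByExpr, 12 with 12 libraries sharing one spread, and 9 and 19 by limma on log2(TPM + 1) and log2(TPM + 0.1), with 0 to 14 (without WT leaf replicate 1) when one library was left out. Over all genes these calls moved from 77 to 2233, 1336, 1162, 726, 1092, 570 and 1077, and to 1019 without WT leaf replicate 1. The number called for the interaction changed from 27 to 41 by DESeq2, with 6 (without E82 grain replicate 2) to 36 (without WT leaf replicate 1), beside 253, 1527, 62 and 739 over all genes. Over all genes the interaction called 253 higher and 1803 lower, and 520 and 1475 with library totals alone. The cause of these changes was not tested.

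With a block per replicate number shared by both lines, the test called 2 genes in grain and 0 genes in leaf. Over all genes there were 41 and 45 calls in the directions of the set. Libraries of one number come from different plants in the 2 lines, so this block does not stand for shared plants. The interaction, with a block for each number within a line, called 0 genes of the set and 0 over all genes. Same-numbered libraries did not deviate together (correlations of -0.04 to 0.02), so these data give no sign that the numbers pair them. The median log2 ratios ranged from 1.03 to 1.58 in grain and from -1.81 to -1.41 in leaf without one library, within the spread between replicates. Of 720 log2FC values of 20 named genes, 0 changed sign, 30 lost and 133 gained a call.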
